A study of Mus musculus with 8 samples.

Results

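Gabra2 and the 3 other GABA-A receptor subunit genes of the same chromosome 5 cluster (Gabra4, Gabrb1 and Gabrg1) were compared between the brains of BTBR/R and B6 mice. Their members were all array probes whose gene name was one of these 4 symbols, which gave 12 of the 56605 probes on the array: 4 for Gabra2, 2 for Gabra4, 1 for Gabrb1 and 5 for Gabrg1. RNA came from the cerebral cortex and striatum together of 4 male B6 mice (C57BL/6J, 4 months old) and 4 male BTBR/R mice (BTBRTF/ArtRbrc, 4 months old except for BTBR/R mouse 1 at 6 months). Neither strain was given an experimental treatment, but mice of both strains were under pentobarbital anaesthesia when they were killed. Each mouse had a 1-colour Agilent array of its own. The BTBR/R strain is a subline of BTBR, an inbred line studied for autism-like behaviour, and B6 served as the comparison strain. Both strains are inbred, so any allele by which they differ is shared by every mouse of a group.

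GABA-A receptors are chloride channels built of 5 subunits and opened by GABA, the main inhibitory transmitter of the adult brain. A typical synaptic receptor holds alpha and beta subunits and a gamma subunit, and GABA binds where alpha meets beta. The alpha subunit sets much of the pharmacology: receptors with alpha2 (Gabra2) are known for the calming action of benzodiazepines, whereas alpha4 (Gabra4) is part of receptors that do not respond to classical benzodiazepines and often lie outside synapses. Beta1 is encoded by Gabrb1 and gamma1 by Gabrg1. Subunit genes lie in clusters on several chromosomes. C57BL/6J is known to carry a variant of Gabra2. The arrays measured RNA and no genotype, and the part of that variant in the values was not tested.

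The sequences of the Gabra2 probes are shown first, because the comparison rests on where they lie and on what they share. All 4 lie on the minus strand of chromosome 5 within 2344 bases, by the mm9 positions given with the array, so that the highest position is the most upstream in the transcript. From upstream to downstream they are A_55_P2177351 at chr5:71352306-71352365, A_55_P2027900 at chr5:71352275-71352334, A_55_P2731551 at chr5:71350908-71350967 and A_52_P336171 at chr5:71350022-71350081. The array assigns the first of them to the RefSeq transcript of Gabra2 and each of the others to an Ensembl transcript of its own; whether a probe lies in coding or untranslated sequence was not analysed here. Each probe has 60 bases, of which 30 are given here, 5′ to 3′. In the first 2 lines the capitals mark the 29 bases that both upstream probes hold.
A_55_P2177351 (its last 30 bases): tTCAGCTCACTTCAATCATTGGAAACTACC
A_55_P2027900 (its first 30 bases): TCAGCTCACTTCAATCATTGGAAACTACCt
A_55_P2731551 (its first 30 bases): catgatttgtactcataccagggtcacagc
A_52_P336171 (its first 30 bases): taatgacattatgataagttagacgtccca

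The upstream probes therefore read much of the same stretch of RNA and are not independent of each other. A_55_P2027900 also ends in a run of A and G, of which 23 bases occur in a probe of another gene, BC005624, and are set in capitals here.
A_55_P2027900 (its last 30 bases): aaaatttAGAAGAAGAAGGAGAAGAAGAAG

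The BC005624 probe was lower in BTBR/R mice (-0.35 on the log2 scale, limma adjusted p = 0.00409). Whether A_55_P2027900 also binds RNA of other genes was not tested. The other Gabra2 probes shared fewer than 15 bases in a row with any probe of another gene.

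Gabra2 RNA was higher in every BTBR/R mouse than in every B6 mouse at all 4 probes, by 2.001-fold to 2.43-fold. The processed signal is the background-subtracted brightness of a spot. At A_55_P2731551 it was 844, 955, 817 and 948 in B6 mice 1 to 4, and 2071, 2066, 2298 and 2259 in BTBR/R mice 1 to 4. At the most downstream probe, A_52_P336171, it was 594, 755, 635 and 648 in B6 mice, and 1516, 1299, 1674 and 1628 in BTBR/R mice. At both probes the dimmest BTBR/R mouse was well above the brightest B6 mouse, and the 4 mice of a strain lay close together.

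The upstream pair of probes gave the same order of the strains with 1 mouse apart. Processed signals at A_55_P2177351 were 1104, 1189, 1126 and 1200 in B6 mice, and 2428, 1829, 2671 and 2735 in BTBR/R mice. At A_55_P2027900 they were 910, 998, 898 and 991 in B6 mice, and 1951, 1384, 2242 and 2187 in BTBR/R mice. BTBR/R mouse 2 was the lowest of its strain at both of these overlapping probes and still lay above every B6 mouse. It was also the lowest at the most downstream probe, A_52_P336171, and at A_55_P2731551 it was level with BTBR/R mouse 1.

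For the test, each array was first scaled by taking its 75th percentile from the log2 signals, which gives the scaled signal. The strains were then compared with limma and p-values were adjusted over the whole array by Benjamini-Hochberg. Called means a change of 2-fold or more with an adjusted p under 0.05. A_55_P2731551 went from 0.66 ± 0.11 (SD, n = 4) in B6 mice to 1.94 ± 0.05 in BTBR/R mice, a difference of 1.28 on the log2 scale (standard error 0.07, 95% confidence interval 1.13 to 1.43, 2.43-fold, limma adjusted p = 2.22e-05). A_52_P336171 went from 0.22 ± 0.15 to 1.43 ± 0.11, a difference of 1.21 (standard error 0.09, interval 0.99 to 1.42, 2.31-fold, limma adjusted p = 2.76e-05). The upstream probes differed less, with A_55_P2177351 at 1.04 ± 0.05 and 2.08 ± 0.21 (1.04, standard error 0.10, interval 0.80 to 1.28, limma adjusted p = 0.000125). A_55_P2027900 lay at 0.75 ± 0.07 and 1.75 ± 0.26 (1.001, standard error 0.13, interval 0.70 to 1.31, limma adjusted p = 0.00058). Its 2.001-fold change stands right at the threshold, and the call is lost when B6 mouse 1 or 3 or BTBR/R mouse 1, 3 or 4 is left out, at 0.93 to 0.99. That of A_55_P2177351 is lost without BTBR/R mouse 3 or 4, at 0.99 each, while both limma adjusted p stay under 0.05.

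All 4 Gabra2 probes were thus called higher, where 1.04% of the probes detected on all 8 arrays were called higher. A probe counts as detected where the scanner software marks it well above background. Over all 56605 probes the share called higher was 20.2%, and 10072 of the 11413 probes behind that share were detected on no array. When the background was corrected with limma's normexp method in place of the scanner software's, 0.408% of all probes were called higher, and among them were 2 of the 4 Gabra2 probes, A_55_P2731551 (1.21) and A_52_P336171 (1.10). The other probes of Gabra2 then lay just under 2-fold, at 0.98 and 0.94, with limma adjusted p of 0.00025 and 0.000989. The differences at all 4 Gabra2 probes lay between 0.93 and 1.39 over the 19 alternative settings.

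**Figure D1:**
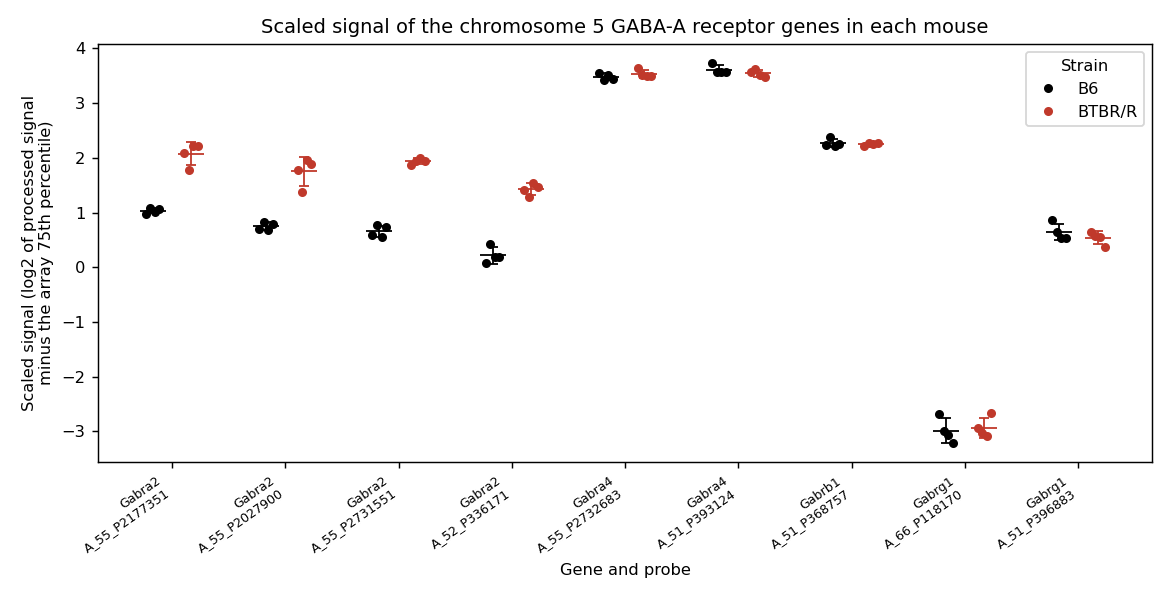
Scaled signal (y axis, log2 relative to the 75th percentile of each array) of the 9 probes of Gabra2, Gabra4, Gabrb1 and Gabrg1 that were detected on all 8 arrays (x axis). Each point is 1 mouse, and the bars give the mean and SD of the 4 mice of a strain. The B6 and BTBR/R points are apart at the 4 Gabra2 probes and overlap at the 5 others. Heights of different probes are not comparable.

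The probes of Gabra2 were also set against each other within each array, which takes out the scaling. In B6 mice A_55_P2027900 was between 0.06 and 0.14 (log2) brighter than A_55_P2731551, and in BTBR/R mice it was between -0.58 and -0.04, so that the difference between the probes changed by -0.28 between the strains. For A_55_P2177351 against the same probe the change was -0.24. Each of these had an exact two-sided permutation p of 0.0286, the smallest that 4 arrays against 4 allow, but adjusted over the 6 pairs of probes the p was 0.0857. Without BTBR/R mouse 2 the changes shrank to -0.15 and -0.14, with no overlap between the strains. Against the most downstream probe, A_52_P336171, the changes of the upstream probes were -0.17 (exact permutation p = 0.114) and -0.21 (0.0857), and the strains overlapped. No pair passed the correction.

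Gabra4, which encodes the alpha4 subunit, did not pass the test at either probe. The processed signal of A_51_P393124 at chr5:71962623-71962682 was 7500, 6628, 6581 and 6817 in B6 mice, and 6696, 6581, 6562 and 6558 in BTBR/R mice. That of A_55_P2732683 at chr5:72046554-72046613 was 6625, 5989, 6394 and 6246 in B6 mice, and 7064, 6149, 6447 and 6623 in BTBR/R mice. The strains overlapped at both probes. The differences were -0.07 (95% confidence interval -0.21 to 0.07, limma adjusted p = 0.425) and 0.05 (interval -0.08 to 0.18, limma adjusted p = 0.534). The intervals leave room for a BTBR/R level between 0.867-fold and 1.13-fold of that of B6 mice, which is far from the 2.001-fold to 2.43-fold seen for Gabra2.

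Gabrb1 (beta1) has a single probe, A_51_P368757 at chr5:72528086-72528145 on the plus strand. Its processed signal was 2638, 2927, 2596 and 2726 in B6 mice, and 2635, 2575, 2741 and 2842 in BTBR/R mice. The BTBR/R mice lay almost wholly within the range of the B6 mice. The difference was -0.02 (interval -0.14 to 0.10, limma adjusted p = 0.795), which bounds the fold between 0.908 and 1.07.

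Gabrg1 (gamma1) is the outermost gene on the side of Gabra2 that faces away from Gabra4. At its brightest probe, A_51_P396883 at chr5:71143181-71143240, the processed signal was 1023, 880, 808 and 831 in B6 mice, and 890, 797, 848 and 766 in BTBR/R mice. The ranges overlapped, and the difference was -0.11 (interval -0.33 to 0.11, limma adjusted p = 0.414). A much dimmer probe, A_66_P118170, ranged from 61.8 to 88.4 in B6 mice and from 65.3 to 92.6 in BTBR/R mice, with a difference of 0.05 (interval -0.27 to 0.38, limma adjusted p = 0.796). The 3 remaining Gabrg1 probes (A_55_P2935012, A_55_P2935011 and A_55_P2805131) were not well above background on any array, so no fold is given for them. Over the alternative settings, no probe of Gabra4, Gabrb1 or Gabrg1 was called.

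To test whether Gabra2 differed from its neighbours in the cluster, the brightest probe of Gabra2 (A_55_P2177351) was set against the brightest probe of each other gene within each array. Against Gabra4 the difference was -2.76 to -2.48 (log2) in B6 mice and -1.85 to -1.26 in BTBR/R mice, a change of 1.11 or 2.15-fold. Against Gabrb1 it was -1.299 to -1.18 in B6 mice and -0.49 to -0.04 in BTBR/R mice, a change of 1.06 or 2.08-fold. Against Gabrg1 it was 0.11 to 0.53 in B6 mice and 1.20 to 1.84 in BTBR/R mice, a change of 1.15 or 2.21-fold. The strains did not overlap in any of the 3 comparisons, and each had an exact two-sided permutation p of 0.0286, the smallest possible with 4 arrays against 4, which stays at 0.0286 after adjustment over the 3. All 3 comparisons use the same Gabra2 probe, so they are not independent of each other. The strains had already been seen to be apart at that probe. By its brightest probe, Gabra2 changed relative to every other gene of the cluster, by close to 2-fold against each.

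**Figure D2:**
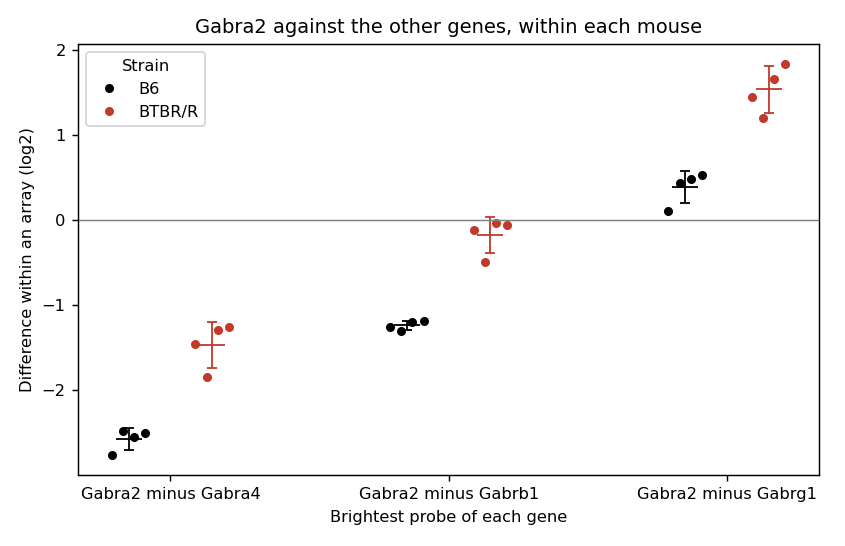
Difference between the brightest Gabra2 probe and the brightest probe of Gabra4, Gabrb1 or Gabrg1 on the same array (y axis, log2; x axis, the pair of genes). Points are single mice and bars give the mean and SD of 4 mice. Only the gap between the strains is meaningful, since the height depends on the probes, and it is 1.11, 1.06 and 1.15 for the 3 pairs.

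Next, the probes around the cluster were examined, within 1 Mb of the outermost probes of the 4 genes. This window held 36 other probes of 21 gene names, of which 15 probes of 10 genes were detected on all 8 arrays. A single one of the 15 was called, where 2.2% of all probes detected on all 8 arrays were called in either direction. It was higher in BTBR/R mice and belonged to Cox7b2, a gene for an isoform of a cytochrome c oxidase subunit. The probe (A_55_P2750463, chr5:71834167-71834226, minus strand) lies 483 kb from the Gabra2 probes, between those of Gabra2 and Gabra4, and RefSeq also places the gene between Gabra2 and Gabra4 and on their strand. It is shown by its first 30 bases.
A_55_P2750463 (Cox7b2): cccaagagtggaagaagaagtaaatatctt

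The Cox7b2 probe was dim in both strains, with processed signals of 81.4, 63.3, 70.7 and 53.1 in B6 mice, and 195, 178, 207 and 189 in BTBR/R mice. All BTBR/R mice lay above all B6 mice, and all 8 values lay above the lowest detected signal of their array, which was 14.5 to 17.8 on B6 arrays and 36.1 to 47.1 on BTBR/R arrays. Its scaled signal went from -3.09 ± 0.27 (SD, n = 4) to -1.56 ± 0.07, a difference of 1.53 (standard error 0.13, interval 1.22 to 1.84, 2.88-fold, limma adjusted p = 5.11e-05). With normexp correction the difference was 1.01, still called, and it lay between 1.01 and 1.64 over the 19 alternatives, which were chosen for this probe after seeing the data. Over the 8 arrays Cox7b2 and the mean of the Gabra2 probes had a Pearson r of 0.95, but the deviations from the strain means had an r of -0.25. The first value reflects 2 groups of 4 mice and the arrays they share.

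No other probe that all 8 arrays detected in the window passed the test. By its brightest probe, the difference was 0.03 for Commd8, -0.22 for Atp10d, 0.20 for Nfxl1, -0.46 for Zar1, 0.08 for Gm5868, -0.07 for Cnga1, 0.03 for Slain2, 0.10 for Slc10a4 and 0.00 for Fryl. The interval for Zar1 was -0.97 to 0.06, which leaves room for a level nearly 2-fold lower in BTBR/R mice. The median over the 15 detected probes was 0.03, beside 0.00 over all probes detected on all 8 arrays. Of the 21 other probes in the window that were not detected on all 8 arrays, 8 were called higher, and 6 of these were detected on no array. Another 2 passed the adjusted p at under 2-fold, a Corin probe detected on no array and an Atp10d probe (A_52_P616332) detected on all 4 B6 arrays and on none of the BTBR/R arrays. With the lowest signal detectable on each BTBR/R array as the other side, the Atp10d probe was at least 1.05-fold higher in B6 mice. This bound was not tested. The limma adjusted p of 0.0442 belongs to the fit with the undetected BTBR/R values. With normexp correction the difference of this probe was -0.09. The stretch of called but undetected probes belongs to the 20.2% described above and is no measure of the genes.

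On the far side of Gabrg1 no other probe analysed here fell within 1 Mb. The nearest one detected on all 8 arrays was a probe of Gnpda2, 1.17 Mb from the outermost Gabrg1 probe, and it had a difference of 0.00 (interval -0.27 to 0.27). On that side the nearest called probe that all arrays detected lay 17.3 Mb from the Gabra2 probes, belonged to the transcript AK164362 and was lower in BTBR/R mice. Among the detected probes of the window, the calls were thus those of Gabra2 and Cox7b2, while Gabrg1 on one side of them and Gabra4 on the other were not called.

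**Figure D3:**
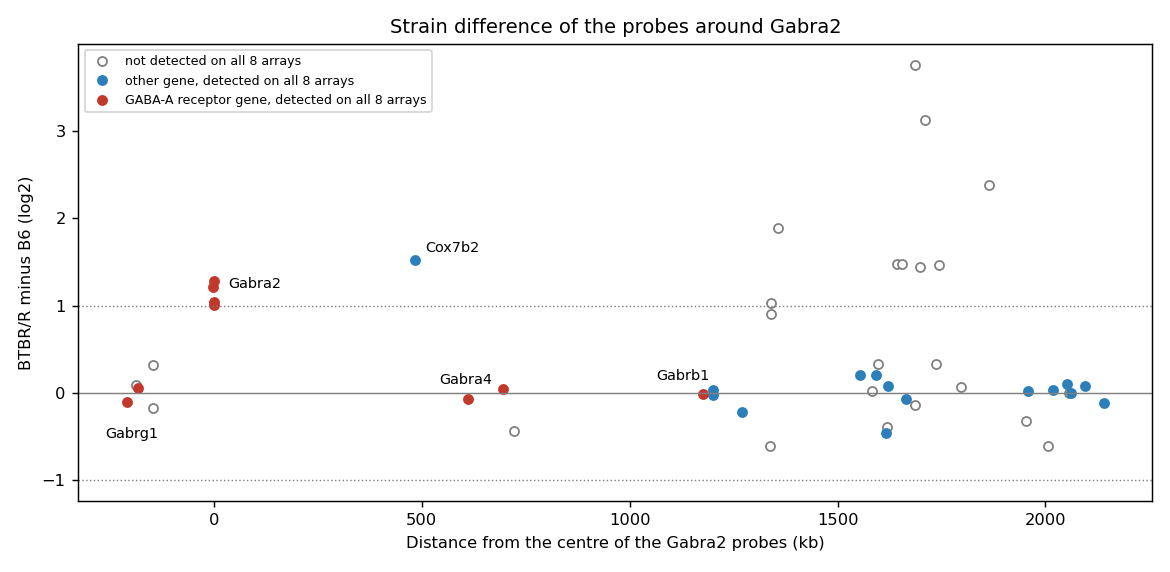
Difference between the strains (y axis, BTBR/R minus B6, log2) of each probe in the window, by its distance from the centre of the Gabra2 probes (x axis, kb, toward higher positions to the right). Filled points were detected on all 8 arrays and open points were not, and dotted lines mark a 2-fold change. Among filled points, those of Gabra2 and Cox7b2 lie at or above the upper line and all others lie between -0.46 and 0.20.

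The GABA-A receptor subunits encoded elsewhere were then compared. The list reported here held 12 genes and 23 probes, of which 14 probes of 7 genes were detected on all 8 arrays. A single detected probe was called higher and 0 were called lower, where 2.2% of all detected probes were called in either direction. Their median difference was -0.02 and the range -0.17 to 1.70. At any fold, 3 of 14 passed the adjusted p, all as higher, where 26.9% of all detected probes passed. The last share is near the background.

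The called probe belonged to Gabrg3, which encodes gamma3 and lies on chromosome 7, as does Gabra5. At A_55_P2053251 the processed signal was 103, 100.3, 97.4 and 111 in B6 mice, and 343, 341, 321 and 335 in BTBR/R mice, with a difference of 1.70 (standard error 0.06, 3.24-fold, limma adjusted p = 4.66e-06). The 3 other detected probes of Gabrg3 did not pass the test, at -0.09, 0.03 and 0.41, so this gene was called at 1 of 4 detected probes, whereas Gabra2 was called at 4 of 4. Gabrb2 (beta2) was higher at 2 of 3 detected probes, by 0.19 and 0.22. The detected probes of Gabra5, Gabrd, Gabrr1, Gabrr2 and Gabra3 did not pass. The genes Gabra6, Gabre and Gabrr3 were detected on no array.

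**Figure D4:**
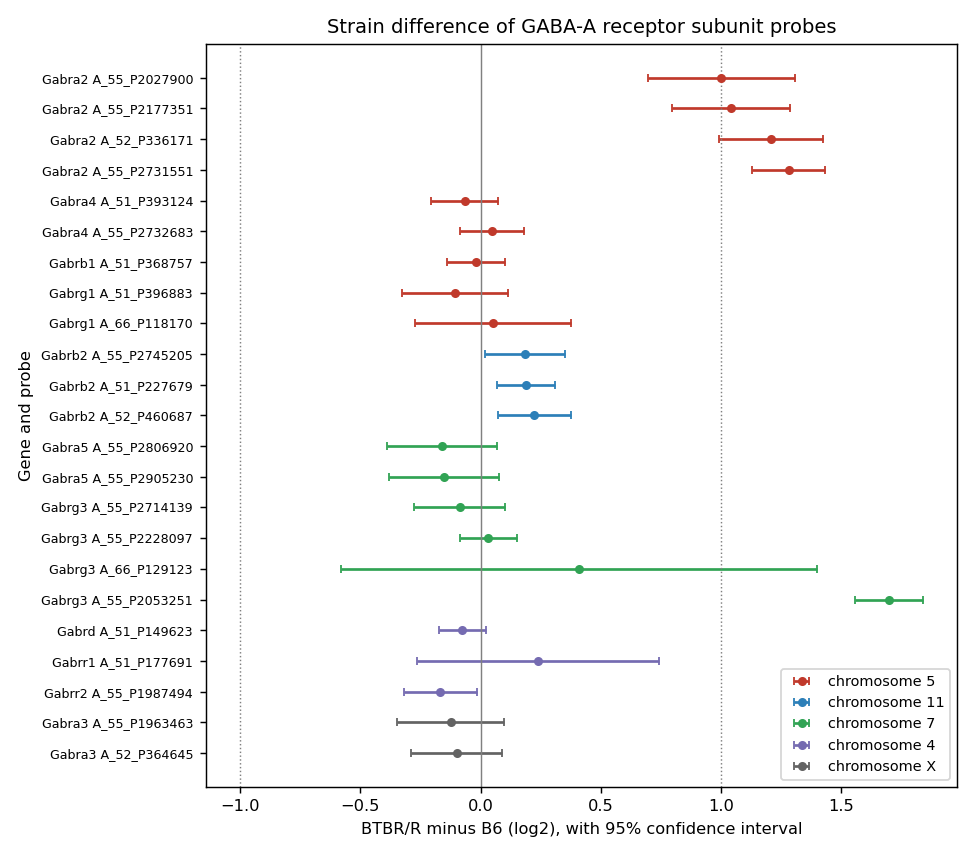
Difference between the strains (x axis, BTBR/R minus B6, log2) of every GABA-A receptor subunit probe analysed here that was detected on all 8 arrays (y axis), coloured by chromosome. Points are limma estimates from 4 mice a strain with 95% confidence intervals, and dotted lines mark a 2-fold change. The 4 Gabra2 probes and 1 of 4 Gabrg3 probes lie at or beyond it, and all others lie between -0.17 and 0.41.

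Genes that act around GABA-A receptors were read as a list of their own. The list held 30 genes for GABA synthesis, uptake, receptor anchoring, trafficking and turnover, with 66 probes, 58 of them detected on all 8 arrays. None of the 58 was called in either direction by limma, where 2.2% of all detected probes were, and 8 passed the adjusted p at any fold (7 higher and 1 lower), where 26.9% of all did. Their median was 0.02. A count of 0 among 58 is near that background. The extremes, named after their values were seen, were 0.83 at 1 of 3 detected probes of Gad1, a GABA-synthesizing enzyme, and -0.48 at Plcl1, which binds GABA-A receptor subunits.

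Because the tissue held both cortex and striatum, markers of each were read beside Gabra2. Fewer cells that express a gene and less RNA per cell cannot be told apart in such tissue. All 6 cortical neuron markers and all 8 striatal projection neuron markers were detected on all arrays. The mean scaled signal of the cortical list, with each gene read by its brightest probe, was 1.297 to 1.58 in B6 mice and 1.49 to 1.72 in BTBR/R mice, and 3 of its 9 probes, of Cux2 and Fezf2, passed as higher by 0.30 to 0.39. The striatal list lay at 3.19 to 3.33 in B6 mice and 3.03 to 3.21 in BTBR/R mice, with 3 of 15 probes lower, of which Pde10a (-1.07) alone was called. Astrocyte markers lay at 2.16 to 2.27 and 1.96 to 2.21, and 3 of 12 detected probes passed as lower. Interneuron markers lay at 3.670 to 3.709 in B6 mice and 3.713 to 3.742 in BTBR/R mice, ranges that almost touch. Of their 11 detected probes, 1 passed as higher and 1 as lower. General neuron markers lay at 6.05 to 6.12 and 6.02 to 6.10, and 1 of 11 probes passed as higher and 2 as lower. A list of 9 markers of other regions and tissues (cerebellum, thalamus and choroid plexus) held 3 that were detected on no array, Gabra6, Cbln3 and Barhl2, and 6 that were detected on all 8. The mean of those 6 ranged widely between mice, from -0.49 to 1.90 in B6 mice and from 0.14 to 1.28 in BTBR/R mice. Ttr, a choroid plexus gene, ranged from 0.55 to 5.22 in B6 mice and from 2.13 to 4.53 in BTBR/R mice at its brightest probe. The counts of cortical, striatal and astrocyte probes stand beside the 26.9% of all detected probes that passed the adjusted p, and are near it. The part of these values in the Gabra2 difference was not tested.

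Genes whose pattern was most like that of Gabra2 were found from the Pearson r over the 8 arrays, between the mean of the Gabra2 probes and the brightest detected probe of each of 18856 genes. The highest were Hmgn2 (nucleosome binding, r 0.997), Mtrr (methionine synthase reductase, 0.997), Tmem159 (a lipid droplet protein, 0.996), Lpl (lipoprotein lipase, 0.995) and Ndufaf4 (assembly of respiratory complex I, 0.994). An r above 0.9 was reached by 1439 genes, and r over the 8 arrays includes the step between 2 groups of 4 arrays. For the deviations from the strain means, r was 0.91, 0.91, 0.86, 0.86 and 0.85 for these 5 genes in the same order, and these values follow in part from the choice of the genes with the highest r on the same arrays. The differences between the strains were 0.55, 0.48, 0.91, 1.20 and 0.93. In the cluster itself r was -0.57 for Gabra4, -0.12 for Gabrb1 and -0.46 for Gabrg1, and for the deviations from the strain means it was -0.74, 0.42 and -0.34.

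Across the series, the 75th percentile of the processed signal was 556 to 572 on B6 arrays and 535 to 589 on BTBR/R arrays, and 64.5% to 66.8% and 53.5% to 57.2% of the probes were detected. The B6 samples filled 1 column of the slide and the BTBR/R samples the other, so strain and place on the slide cannot be told apart. The comparison within arrays is not changed by a factor that scales a whole array. It does not take out an effect that adds to the signal or that differs between probes.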

How the data were processed

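Samples were grouped by the strain in their labels, with 1 mouse per array. The authors deposited spot intensities from Agilent Feature Extraction 10.7.3.1, in which the processed signal is background subtracted, and GeneSpring log2 values. On each array these equalled the log2 of the processed signal less a constant, within 0.01 for 99.97% or more of the probes. Deposited flags for control spots, outliers and detection were also used. Control and outlier spots were left out and spots of a probe were averaged. Log2 signals, with the 75th percentile of each array taken off, were fitted with limma 3.58.1 (lmFit and eBayes, R 4.3.3) over 56605 probes, and other steps used Python 3.11.15. On simulated data for this comparison and number of probes, 195 of 200 changed probes and 10 unchanged ones were called. The changes put in were larger than that of any Gabra2 probe and were placed in probes that all arrays detected. The simulation held no difference in detection limit between the strains, so its counts do not measure how reliable the Gabra2 calls are. Differences within arrays were tested by exact permutation.

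The members and gene lists were chosen with earlier results of these data known. The text names all probes of the 4 genes, each detected gene of the window by its brightest probe, subunit and synapse genes with a called detected probe, and the 5 most similar genes, with exceptions marked. Alternatives were other scalings (median, detected probes, 7 spike-in probes), quantile normalization, normexp (offset 50), the authors' log2 values, 2 detection filters, limma with its trend and robust options, the methods' t-test, a replicate block and leaving out each mouse. Positions are mm9 as given with the arrays, and gene order is from RefSeq (GRCm38.p6). The number of arrays limits precision. Some subunit genes are not reported here.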

Additional observations from a re-analysis of the deposited data

Results flagged for a closer look

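Among 30 groups of 4 values (the probes of the 4 genes and the differences within arrays, per strain), 1 held a mouse far from the other 3, where chance gives about 1 in 20. At the Gabra4 probe A_51_P393124, B6 mouse 1 had a scaled signal of 3.73 and the other B6 mice lay between 3.56 and 3.58. Without this mouse the Gabra4 probe was still not called.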

How the results depend on the processing

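Of the Gabra2 probes, 4 were called higher, 2 with normexp background correction and 2 to 4 when each mouse was left out in turn, with 2 without BTBR/R replicate 3 or without BTBR/R replicate 4. A_55_P2731551 and A_52_P336171 were called in all 19 alternatives. A_55_P2177351 lost its call in 3 of them and A_55_P2027900 in 9, each time by a change just under 2-fold and with the adjusted p below 0.05. Gabra4, Gabrb1 and Gabrg1 had 0 called probes in every alternative run, and the differences within arrays kept their direction in those run for them. Scaling by the spike-in probes moved the median of the probes detected on all arrays to 0.11. With a replicate block, 4 Gabra2 probes were called, with limma adjusted p from 0.00283 to 0.00928. The mouse numbers share only a number, as the correlations of same-numbered mice lay between -0.07 and 0.16, and over all probes 11693 were called with the block and 12697 without it. Calls over all probes fell to 563 with normexp, 2200 with quantile normalization, to 1558 among probes that every array of a strain detected, and to 631 among those that all 8 detected. Dim probes are limited by the higher detection limit of the BTBR/R arrays.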
